A study of Mus musculus with 14 samples.

Results

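Ccbe1, Cntn1, Ripk4, Gipc2, Myom1 and Sfrp1 were read in long-term hematopoietic stem cells (LT-HSCs) of old mice and were at least 4-fold lower in donor cells recovered after transplantation. These 6 genes come from a larger group chosen by the same criteria. Those criteria were a mean of at least 1 CPM (the read count scaled to a common library size) in both pre-transplant groups and a fitted log2 change of -2 or less after transplantation. In all, 291 protein-coding genes met them, which is 2.42% of the 12037 protein-coding genes seen before transplantation, in tables that list 55450 gene identifiers. Among the 291, ordered from the deepest fall, Ccbe1 was number 5, Ripk4 number 17, Cntn1 number 21, Gipc2 number 79, Myom1 number 192 and Sfrp1 number 278. The fall after transplantation chose the genes, so its size is a description here and carries no test.

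The -2 boundary did not fall in a gap. Cdc42ep5, Hpgds and L1cam lay just inside it, with log2 changes of -2.021, -2.005 and -2.004. Dll4, Synm and Ggt1 lay just outside it, at -1.995, -1.983 and -1.981.

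The study measured polyA RNA in 14 libraries of bone marrow LT-HSCs from female C57BL/6 mice, defined by the absence of lineage markers and CD48 and the presence of Sca-1, c-Kit and CD150. Before transplantation, cells with low or high surface P-selectin (Selp), an adhesion molecule, were sorted from 4 donors older than 24 months, giving 4 Selp low and 4 Selp high libraries. The other groups are the CD45.2+ progeny of such cells, 1000 per transplant, taken from lethally irradiated recipients that were 10 to 16 weeks old at the start, 16 weeks later. They comprise 3 Selp low-derived and 3 Selp high-derived libraries, and each library of the study was made from 5000 cells. The later sort did not use P-selectin, so the comparison of stages spans transplantation, irradiated young hosts, elapsed time and a different gate, which cannot be told apart. The sources used here do not say whether each post-transplant library came from its own recipient. If it did not, p-values for those groups measure a spread that may be technical. The 8 pre-transplant libraries came from 4 donors but were fitted as independent, and libraries with the same number varied together. The p-values between stages may therefore be too small, and the counts of called genes too high.

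LT-HSCs sit at the top of the blood hierarchy, divide rarely in undisturbed marrow, and have to divide to refill the marrow of an irradiated host. The 6 genes encode proteins from unrelated families. CCBE1 is a secreted matrix protein that helps the protease ADAMTS3 to cut VEGF-C into its active form during lymphatic vessel growth. SFRP1 is a secreted protein that binds Wnt ligands. CNTN1 is an adhesion molecule of the immunoglobulin superfamily held to the membrane by a lipid anchor and best known from axons. RIPK4 is a serine/threonine kinase with ankyrin repeats that is needed for differentiation of the epidermis. GIPC2 is a PDZ-domain adaptor of a family that links membrane receptors to the motor protein myosin VI. MYOM1, or myomesin, cross-links thick filaments in the M-band of striated muscle.

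Between 22374794 and 38216775 reads per library, with a median of 26935055, were assigned to genes. Of the genes that define the sort, Kit stood at 1270 ± 229 CPM before (SD, n = 8) and 1240 ± 207 after (SD, n = 6). Slamf1, which encodes CD150, stood at 224 ± 33.1 and 108 ± 10.8 CPM (adjusted p = 6.87e-06 in edgeR). Ly6a, which encodes Sca-1, stood at 456 ± 174 and 284 ± 51.9 CPM (adjusted p = 0.0464 in edgeR), a call made in 7 of 19 alternatives. Cd48 stood at 7.10 ± 7.22 and 10.8 ± 3.57 CPM. Of 9 listed LT-HSC genes, which include Kit, Slamf1 and Ly6a, 6 were called lower and 0 higher, where 14.6% of all genes were lower. Their summed level ran from 4280 to 5220 CPM before and from 3010 to 4200 after. Selp itself stood at 634 ± 107 CPM before and 285 ± 24.9 after. In a principal component analysis 4 libraries stood apart, both pre-transplant libraries numbered 4, Selp low-derived replicate 2 and Selp high-derived replicate 1. Without them all 6 genes still met the criteria, with log2 changes of -6.93 for Ccbe1, -4.84 for Cntn1, -5.46 for Ripk4, -3.53 for Gipc2, -2.37 for Myom1 and -2.11 for Sfrp1.

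Per kilobase of exon, which allows levels to be compared between genes, the 6 genes covered a wide range before transplantation. Sfrp1 was the most abundant at 15.4 CPM per kb of exon, and Ripk4 followed at 8.45. Gipc2 and Myom1 lay close together at 1.67 ± 0.175 and 1.54 ± 0.156 CPM per kb (SD, n = 8), a gap smaller than either SD. Cntn1 stood at 0.993 ± 0.374 and Ccbe1 at 0.609 ± 0.121 CPM per kb, and these neighbours in the order also lay within 2 SD of each other. Among the 16878 genes kept for testing, Sfrp1 was at the 75.3 percentile of levels per kb and Ccbe1 at the 22.5 percentile. After transplantation Sfrp1 was at 3.73 CPM per kb and the 48.1 percentile. The other 5 genes lay at or below 0.289 CPM per kb and at or below the 14.7 percentile. Ccbe1 was then the lowest of the 6, at 0.00455 CPM per kb and the 0.290 percentile.

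**Figure D1:**
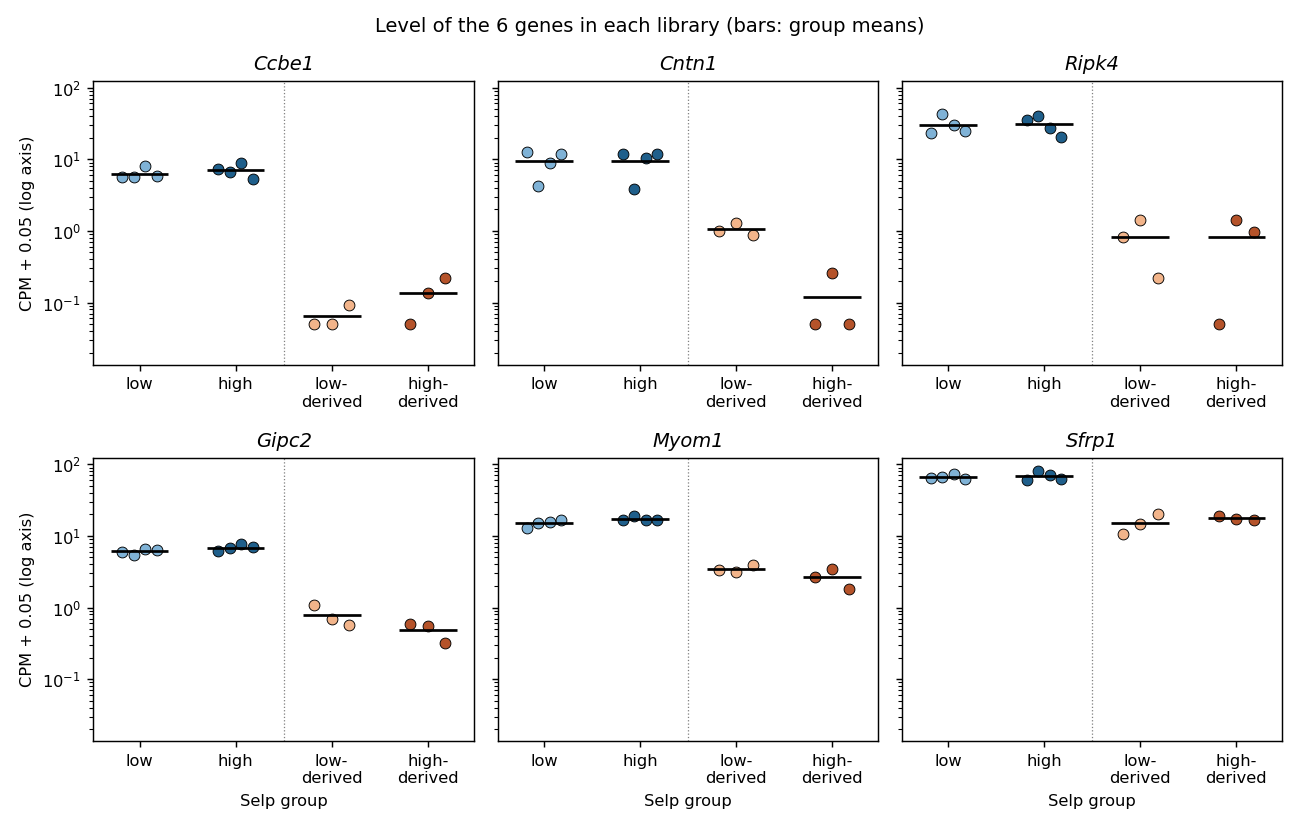
Level of each of the 6 genes in every library, in CPM plus 0.05 on a log axis, with 1 point per library and a bar at each group mean. In every panel the 6 libraries to the right of the dotted line, taken after transplantation, lie below the 8 libraries to its left, and the points of Ccbe1, Cntn1 and Ripk4 at the bottom of their panels are libraries with 0 reads.

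The ranges of the pre-transplant and post-transplant libraries did not overlap for any of the 6 genes. Among all genes tested, 5.47% lay lower after transplantation with no overlap. Because this contrast chose the genes, the count says nothing further about them. In bulk libraries such as these, fewer cells that carry a transcript and less of it in each cell cannot be told apart.

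Ccbe1, the secreted partner of VEGF-C processing, fell to the edge of detection. The gene (ENSMUSG00000046318.16, minus strand) lies on chromosome 18 from 66045302 to 66302741 in GRCm38, and reads over its 10831 bases of exon were counted. Selp low libraries 1 to 4 held 5.63, 5.54, 8.10 and 5.71 CPM of Ccbe1, and Selp high libraries held 7.19, 6.58, 8.78 and 5.23. Both libraries numbered 3 were the highest of their group. After transplantation the reads themselves could be counted by hand, with 0, 0 and 1 read in the Selp low-derived libraries and 0, 2 and 5 reads in the Selp high-derived libraries. In the deepest of the 3 libraries with no read this allows a level of up to 0.107 CPM, taking 3 reads as the limit. Over all libraries, 1500 reads before against 8 after gave a ratio of 131 after scaling by library size (exact 95% interval 66.3 to 304). The fitted fall was 167-fold, a log2 change of -7.38 ± 0.49 (SE).

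The sizes for the separate inputs of Ccbe1 rest on very few reads. The Selp low input gave 749 reads before and 1 after, a ratio of 481 with an interval from 86.1 to 19040. The Selp high input gave 751 and 7 reads, a ratio of 81.7 with an interval from 39.4 to 204. These intervals cover counting error only, since reads amplified by PCR are not independent molecules, and they overlap. Leaving out Selp low-derived replicate 3, the library with the single read, moved the fitted log2 change of Ccbe1 to -8.38. Gm15958, an antisense gene that shares 320 exon bases with Ccbe1, stood at 0.366 ± 0.281 CPM before and 0.0281 ± 0.0688 after. Reads over bases shared by 2 genes are set aside as ambiguous in an unstranded count of this kind, so they are in neither value.

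Other genes of VEGF-C processing and reception changed in part. Of the 11 listed genes found in the tables, 9 were kept for testing. By edgeR's quasi-likelihood test with Benjamini-Hochberg adjustment, 4 of these 9 were lower after transplantation and 0 were higher. Of all genes tested, 14.6% were lower and 12.9% higher, and the counts of every list below are to be read beside these shares. The median log2 change of the 9 genes was -0.43, or -0.93 without Selp high-derived replicate 1, and that of all genes was -0.00871. Kdr, which encodes VEGF receptor 2, fell from 65.7 ± 18.8 to 15.5 ± 6.44 CPM (log2 change -2.12 ± 0.23 SE, adjusted p = 2.13e-05 in edgeR). Nrp2, a VEGF-C co-receptor, fell from 6.53 ± 3.67 to 1.67 ± 1.28 CPM. Ctsd, an abundant lysosomal protease that can also cut VEGF-C, fell by 0.43 on the log2 scale. The fourth, Plat, fell from 0.469 to 0.0522 CPM and was called in 18 of 19 alternatives. Without both pre-transplant libraries numbered 2 it was not kept for testing. Vegfc, the ligand, stood at 28.6 ± 6.47 CPM before and 24.4 ± 3.53 after (edgeR adjusted p = 0.280). Adamts3, which encodes the protease that CCBE1 assists, stood at 4.56 ± 0.991 and 4.90 ± 1.28 CPM (edgeR adjusted p = 0.768). Flt4, which encodes the main VEGF-C receptor, stood at 3.71 ± 2.65 and 1.26 ± 0.690 CPM, with an edgeR adjusted p of 0.0802.

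Of 9 markers of endothelium kept, 3 were lower after transplantation, Kdr, Plvap and Lyve1, and 0 were higher. Lyve1, at 0.648 CPM before and 0.186 after, was called in only 11 of 19 alternatives. Kdr and Flt4 are in this list and in that of VEGF-C processing. The summed level of the 10 listed endothelial markers ran from 287 to 417 CPM before and from 209 to 270 after. Tek and Pecam1 stood at 124 ± 19.3 and 75.2 ± 9.58 CPM before, and at 113 ± 11.5 and 66.5 ± 12.4 after, and neither was called. The part of other cells in the fall of Ccbe1 was not tested.

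Sfrp1, the secreted Wnt antagonist, had the highest level of the 6 and the smallest fall. The gene (ENSMUSG00000031548.7, plus strand) lies on chromosome 8 from 23411502 to 23449632. Selp low libraries held 64.2, 65.8, 72.6 and 61.5 CPM of Sfrp1, and Selp high libraries held 61.1, 81.5, 69.7 and 62.2. Selp low-derived libraries held 10.5, 14.6 and 20.2 CPM, and Selp high-derived libraries held 19.0, 17.2 and 16.4. The highest post-transplant library was therefore well under the lowest pre-transplant one, and the Selp low-derived libraries were the most spread. Sfrp1 had the firmest measurement, with 15395 reads before and 2594 after, a ratio of 4.14 (exact 95% interval 3.98 to 4.32). The fitted log2 change was -2.05 ± 0.13 (SE), or 4.14-fold lower.

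Sfrp1 sits on the boundary of the criteria. Its fall was 4.38-fold for the Selp low input and 3.91-fold for the Selp high input, so it would not have qualified if each input had to reach 4-fold. Without Selp low-derived replicate 1 its log2 change was -1.95, just outside the boundary. It was the only one of the 6 to leave the criteria under any alternative run.

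The other secreted Wnt inhibitors were scarce. Of 12 listed, 4 were kept for testing, 1 was lower and 0 were higher, with a median log2 change of -0.32. That median was -1.67 without Selp high-derived replicate 2. The lower one was Sfrp2, a relative of Sfrp1, which fell from 1.80 ± 0.522 to 0.125 ± 0.136 CPM (log2 change -3.90, edgeR adjusted p = 0.000204). It is below the level set for naming genes and was chosen after its values were seen. Dkkl1, the most abundant of the list per kb, stood at 98.9 ± 21.2 CPM before and 85.7 ± 10.1 after (edgeR adjusted p = 0.285).

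Elsewhere in the Wnt pathway, calls among ligand and receptor genes were all lower after transplantation, and most genes of these lists were not called or not kept. Among Wnt ligands and the genes that export them, 8 of 21 were kept, 4 were lower and 0 higher. Wnt5a fell from 1.86 ± 0.888 to 0.135 ± 0.176 CPM and Wnt4 from 0.635 ± 0.360 to 0.0293 ± 0.0569 CPM. Porcn, which attaches the lipid that Wnt proteins need, fell by 1.12 on the log2 scale, and Wls, their carrier to the surface, fell by 0.33. Among Wnt receptors and co-receptors, 21 of 22 were kept, 8 were lower and 0 higher, with a median log2 change of -0.50. Fzd8 fell from 60.5 ± 11.8 to 19.4 ± 4.47 CPM (edgeR adjusted p = 2.52e-06) and Fzd9 from 33.7 ± 8.39 to 9.81 ± 3.67 CPM (edgeR adjusted p = 8.49e-05). The others were Ror2, Fzd1, Lgr4, Ryk, Fzd3 and Kremen2, of which Kremen2 was called in only 8 of 19 alternatives. Fzd6 and Lrp6 stood at 46.0 ± 5.59 and 35.9 ± 6.01 CPM before, and 41.2 ± 5.47 and 37.9 ± 6.25 after, and neither was called.

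All 19 listed genes of Wnt signal transduction were kept, 0 were lower and 4 were higher, against 12.9% of all genes called higher, and 2 to 4 were higher across the alternatives. Gsk3b and Apc, both parts of the complex that degrades beta-catenin, rose by log2 changes of 0.55 and 0.58, with edgeR adjusted p of 0.000889 and 0.00562. Tcf7l1 and Dvl3 were called too, but only in 9 and 6 of the 19 alternatives. Ctnnb1, which encodes beta-catenin, stood at 562 ± 47.0 CPM before and 641 ± 57.0 after (edgeR adjusted p = 0.0934). Of 9 common Wnt target genes kept, 2 were lower and 2 higher. Jun fell from 2590 ± 816 to 249 ± 251 CPM and Fosl1 from 2.20 to 0.782 CPM. Both also respond to many other signals. Ccnd1 rose from 37.1 ± 15.3 to 81.1 ± 37.7 CPM, and Myc was called with a log2 change of 0.33 in 15 of 19 alternatives. Axin2, often used as a readout of Wnt signalling, stood at 3.81 ± 1.87 and 3.53 ± 0.854 CPM (edgeR adjusted p = 0.756).

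**Figure D2:**
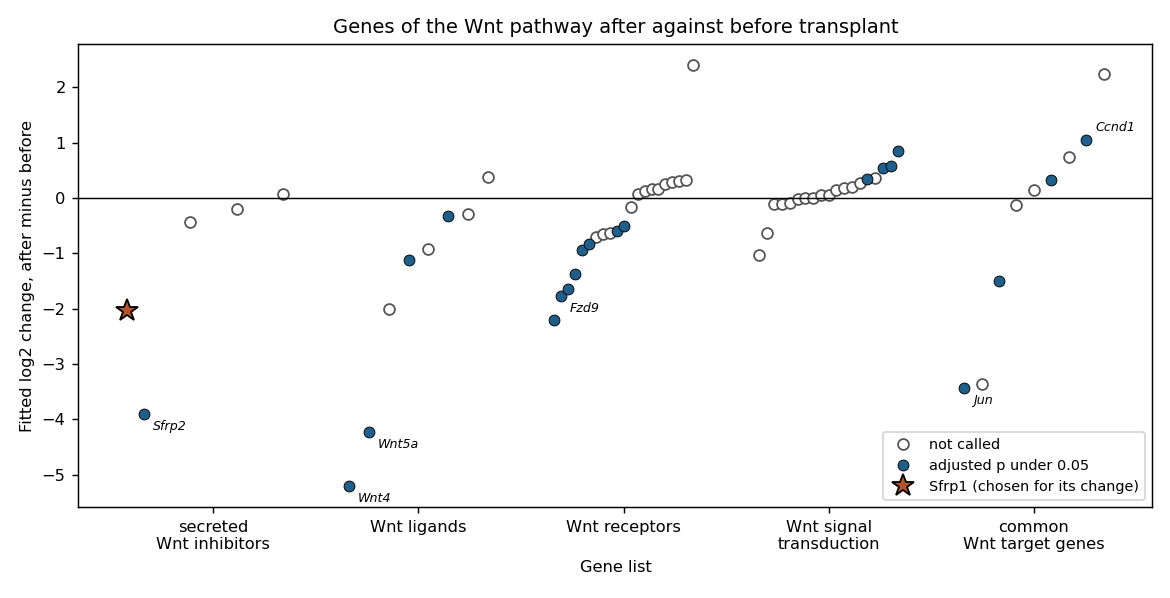
Fitted log2 change after against before transplantation for each tested gene of 5 Wnt lists, with 1 point per gene, filled where edgeR's adjusted p was under 0.05, and a star for Sfrp1, which was chosen for its change. Filled points of the ligand and receptor lists lie below 0, and the 4 filled points of the transduction list lie above it.

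Marrow stroma is a known source of Sfrp1. Of 12 stromal markers, 8 were kept and 3 were lower after transplantation, Lepr, Pdgfrb and Dcn. Their summed level ran from 32.0 to 83.7 CPM before and from 28.1 to 47.6 after, and between 0 and 3 of them were called across the alternatives. Dcn was uneven before transplantation, at 5.99 ± 14.2 CPM, and stood at 0.118 ± 0.144 after. Col1a2, a collagen chain of stroma and bone, stood at 11.8 ± 3.90 and 13.8 ± 3.55 CPM. Of 4 osteoblast markers kept, 0 were lower and 1, Runx2, was higher. The part of these cells in the fall of Sfrp1 was not tested.

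Cntn1, the adhesion molecule, was the gene whose fall was least alike in the 2 inputs. The gene (ENSMUSG00000055022.14, plus strand) lies on chromosome 15 from 92051165 to 92341967. Selp low libraries held 12.6, 4.17, 8.76 and 11.9 CPM of Cntn1, and Selp high libraries held 11.7, 3.81, 10.3 and 11.7. Both libraries numbered 2 were far under the rest. Selp low-derived libraries held 0.952, 1.23 and 0.815 CPM, from 26, 34 and 19 reads. Selp high-derived libraries held 0, 5 and 0 reads, where 5 reads made 0.210 CPM. The 2 groups of donor-derived cells did not overlap. The libraries with no read allow levels of up to 0.107 and 0.101 CPM.

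The fitted fall of Cntn1 was 36-fold as a mean of the inputs, a log2 change of -5.17 ± 0.53 (SE). It was 9.32-fold for the Selp low input and 138-fold for the Selp high input. Raw ratios of summed reads scaled by library size, with exact 95% intervals, were 8.97 (7.13 to 11.4) and 152 (65.1 to 470). The larger one hangs on the 5 reads of Selp high-derived replicate 2, without which the mean log2 change was -7.14.

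The difference between the inputs was not used in choosing the genes, so it was tested. After transplantation Cntn1 was lower in Selp high-derived than in Selp low-derived cells by a log2 change of -3.89 ± 0.86 (SE), or -7.82 without Selp high-derived replicate 2, the only library of its group with reads. The unadjusted p was 0.00047, but over 16878 genes edgeR's adjusted p was 0.615, so the gene was not called. DESeq2, run on the same counts, gave an adjusted p of 0.00368, and over all alternatives the adjusted p ran from 0.00368 to 1. edgeR called 0% of genes in this comparison, 4.53% of genes had an unadjusted p under 0.05, and DESeq2 called 24 genes. The difference itself between stages, the Selp difference after minus that before, was -3.89 ± 1.01 for Cntn1, with an adjusted p of 0.879 in edgeR and 0.0377 in DESeq2. The reads behind it were 79 in Selp low-derived and 5 in Selp high-derived libraries. The groups of Cntn1 did not overlap, as was so for 5.55% of all genes in this direction. The call on Cntn1 therefore depended on the tool.

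**Figure D3:**
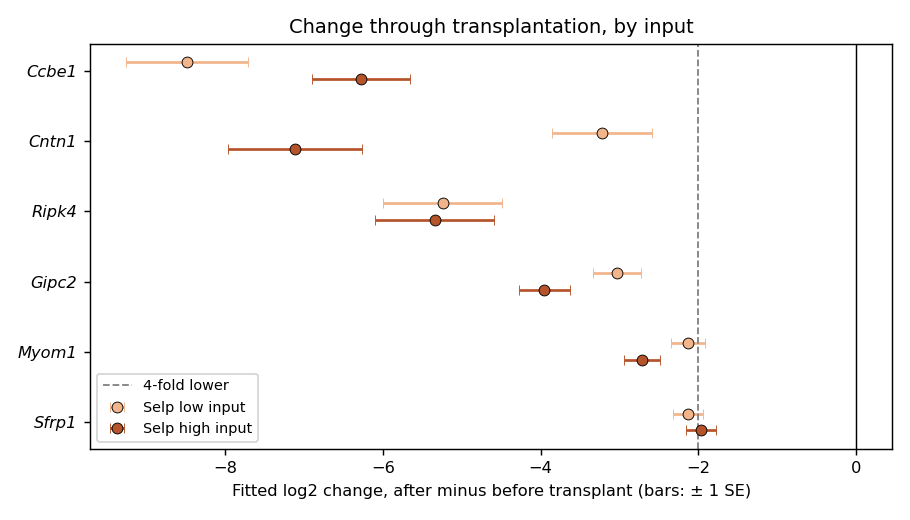
Fitted log2 change after minus before transplantation for each gene, with 1 point for the Selp low input and 1 for the Selp high input, bars of 1 SE and a dashed line at 4-fold lower. The points of Ripk4 nearly coincide at -5.24 and -5.34, those of Cntn1 are farthest apart at -3.22 and -7.11, and Sfrp1 straddles the dashed line.

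Relatives of Cntn1 were mostly silent in these cells. No read of Cntn4, Cntn5 or Cntn6 was found in any library, and only 6 of 18 listed contactins and partners were kept for testing. Of these, 3 were lower and 1 was higher, with a median log2 change of -1.63, which was -2.79 without Selp high-derived replicate 2. The lower ones were L1cam, from 3.40 ± 1.94 to 1.28 ± 1.17 CPM, Ptprg, a receptor phosphatase that binds contactins, from 1.75 ± 0.596 to 0.207 ± 0.233, and Nfasc, from 0.821 to 0.0893. L1cam was not called without Selp high-derived replicate 3, and its log2 change ran from -2.79 to -1.32 over the alternatives. Notch2, one of the receptors that contactins are reported to bind, rose from 79.0 ± 27.3 to 129 ± 30.6 CPM, a call that was lost without Selp low-derived replicate 3. Its log2 change ran from 0.59 to 0.91. Notch1 stood at 29.1 ± 12.3 and 28.7 ± 11.2 CPM (edgeR adjusted p = 0.890).

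Cntn1 is best known from neural cells, and of their markers there were 11 reads of Snap25, 6 of Rbfox3 and 1 of Stmn2 over all 14 libraries together. The summed level of 11 neuronal and glial markers ran from 175 to 221 CPM before and from 171 to 186 after, nearly all of it Mbp, which blood cells also express. Mbp was called lower, at 201 ± 16.0 CPM before and 173 ± 5.85 after (edgeR adjusted p = 0.0318), a call made in 10 of 19 alternatives. The part of neural cells in the fall of Cntn1 was not tested.

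Ripk4, the ankyrin-repeat kinase, fell by a similar factor in both inputs. The gene (ENSMUSG00000005251.15, minus strand) lies on chromosome 16 from 97741933 to 97763787. Selp low libraries held 23.4, 42.2, 29.6 and 24.4 CPM of Ripk4, and Selp high libraries held 35.3, 39.9, 27.5 and 20.4. The library numbered 2 was the highest of each group. Selp low-derived libraries held 0.769, 1.37 and 0.172 CPM, and Selp high-derived libraries held 0, 1.39 and 0.910. The post-transplant groups overlapped fully, and each had 1 library close to or at 0. The fitted fall was 37.9-fold for the Selp low and 40.6-fold for the Selp high input, and 39.2-fold in the mean (log2 change -5.29 ± 0.53 SE). In reads, 7047 before against 123 after gave a ratio of 40.0 (exact 95% interval 33.5 to 48.2).

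Ripk4 varied between the libraries of a group, mainly after transplantation. Its biological coefficient of variation was 0.605, where genes of its level had 0.274. The SD of log2 CPM within groups, pooled over the 4 groups, was 1.25, the highest of the 6, and 0.782 for Cntn1. That order rests on the post-transplant libraries, where Ripk4 ran from 0 to 38 reads. Before transplantation Cntn1 was the more variable, with SDs of log2 CPM of 0.727 and 0.773 in Selp low and Selp high cells against 0.387 and 0.426 for Ripk4.

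Ripk1 and other genes of the RIP kinase group were measured well in these cells. Of 9 genes kept in a list built around the RIP kinases, 1 was lower and 2 were higher, with a median log2 change of 0.12, or 0.0697 without Selp low-derived replicate 1. Mlkl, the effector of necroptosis, rose from 39.6 ± 4.40 to 68.7 ± 11.6 CPM (edgeR adjusted p = 0.000158). Ripk3, the kinase upstream of MLKL, was called higher with a log2 change of 0.26, but in only 11 of 19 alternatives. Casp8 and Ripk1 stood at 186 ± 20.7 and 153 ± 14.5 CPM before, and at 203 ± 22.6 and 141 ± 19.1 after, and neither was called.

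Ripk4 is known from epithelium, and several epithelial markers were called lower too. Of 6 epithelial markers kept, Epcam, Krt8, Krt18 and Cldn4 were lower after transplantation and Dsp was higher. Among all genes tested, 14.6% were lower and 12.9% higher. The call of a higher gene was made in 7 of 19 alternatives. Epcam fell from 25.0 ± 6.64 to 8.39 ± 2.95 CPM and Krt18 from 389 ± 83.6 to 238 ± 25.5 CPM. Krt5 and Krt14, which define basal keratinocytes, had 0 reads in every library. The summed level of the 10 listed markers ran from 327 to 579 CPM before and from 224 to 290 after, most of it Krt18. The part of other cells in the fall of Ripk4 was not tested.

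Gipc2, the PDZ adaptor, was the steadiest gene before transplantation together with Myom1 and Sfrp1. The gene (ENSMUSG00000039131.15, minus strand) lies on chromosome 3 from 152093533 to 152166230. Selp low libraries held 5.90, 5.35, 6.60 and 6.30 CPM of Gipc2, and Selp high libraries held 6.00, 6.73, 7.54 and 6.85. Selp low-derived libraries held 1.03, 0.650 and 0.515 CPM, and Selp high-derived libraries held 0.533, 0.504 and 0.270. Every library still had 8 to 28 reads after transplantation, and the low-derived and high-derived ranges overlapped by a narrow margin. The fitted fall was 11.3-fold (log2 change -3.49 ± 0.22 SE), 8.20-fold for the Selp low and 15.5-fold for the Selp high input.

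Gipc2 was the second gene with an unadjusted p under 0.05 for both tests between the inputs. Selp high-derived cells were lower by a log2 change of -0.75 ± 0.33 (SE), with an unadjusted p of 0.0368 and an edgeR adjusted p of 0.979. The difference of the Selp differences was -0.92 ± 0.41 (SE), with an unadjusted p of 0.0407 and an edgeR adjusted p of 0.879. Neither was called, and genes with an unadjusted p this small made up 4.53% and 5.18% of all genes tested.

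The relatives of Gipc2 were not called lower. Gipc1, the common member of the family, stood at 120 ± 17.8 CPM before and 105 ± 10.9 after (edgeR adjusted p = 0.134). Gipc3 stood at 1.95 ± 0.871 and 2.01 ± 0.899 CPM (edgeR adjusted p = 0.979). Of 11 genes kept in the list of the GIPC family and its cargo, 1 was lower and 2 were higher, with a median log2 change of 0.0541 that ran from 0.00479 without Selp high replicate 3 to 0.149 without Selp low replicate 3. Myo6, which encodes the motor that GIPC proteins recruit, fell from 51.9 ± 11.1 to 35.0 ± 5.08 CPM (edgeR adjusted p = 0.00730). Vangl2 rose from 9.93 ± 1.78 to 15.5 ± 1.97 CPM (edgeR adjusted p = 0.00327), and Plxnd1 was called higher, from 7.70 ± 3.58 to 16.2 ± 2.83, in 15 of 19 alternatives.

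Myom1, the M-band protein, fell 5.37-fold. The gene (ENSMUSG00000024049.15, plus strand) lies on chromosome 17 from 71002633 to 71126856. Selp low libraries held 12.99, 15.1, 15.6 and 16.8 CPM of Myom1, and Selp high libraries held 16.6, 18.7, 16.4 and 16.4. Selp low-derived libraries held 3.33, 3.11 and 3.90 CPM, and Selp high-derived libraries held 2.60, 3.40 and 1.79. The post-transplant groups overlapped, and 53 to 91 reads lay behind each of these values. The fitted log2 change was -2.42 ± 0.16 (SE), 4.38-fold for the Selp low and 6.57-fold for the Selp high input.

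The 5′ end of Myom1 shares 207 exon bases with Myl12a on the opposite strand, and reads over them are in neither value. Myl12a stood at 79.5 ± 12.8 CPM before and 89.1 ± 24.2 after (edgeR adjusted p = 0.435). No muscle programme accompanied Myom1. Myh1, Myh2 and Myh6 had 0 reads in every library, and the summed level of 12 muscle markers was 2.62 to 5.43 CPM before and 3.65 to 6.93 after. In the list of M-band and sarcomere genes, 5 of 12 were kept, 3 were lower and 0 higher, with a median log2 change of -0.27. Obsl1 and Nbr1 were called lower with log2 changes of -0.39 and -0.27, each in 9 of 19 alternatives. Ttn, which encodes titin, stood at 0.320 ± 0.292 and 0.944 ± 0.904 CPM (edgeR adjusted p = 0.220).

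RefSeq promoter windows in GRCm38.p6 are reported here for 2 of the 6 genes, Cntn1 and Myom1. Promoters of the other genes were left out, and their motifs were not tested. The 2 windows shown both hold a CArG box, the motif of serum response factor (SRF). It is found in 1.47% of 32817 RefSeq start site windows of 250 bases. This motif was singled out after several had been searched, and the genes were chosen for their fall. The shared match therefore carries no test, and control of the 2 genes by SRF was not tested. The Cntn1 window is that of its first start site, and the windows of its other RefSeq start sites held no CArG box. The windows are given on the plus strand, which is the strand of both genes, and capitals mark motif matches. In the Cntn1 window, chr15:92050915-92051164, the capitals are a CArG box, a CCAAT box joined to a TCF/LEF motif (CTTTGAT, matched on the minus strand and overlapping that CCAAT), and another CCAAT box. In the Myom1 window, chr17:71019307-71019520, they are a CArG box, and the last 36 bases before the start site were left off because they lie in an annotated exon.
Cntn1: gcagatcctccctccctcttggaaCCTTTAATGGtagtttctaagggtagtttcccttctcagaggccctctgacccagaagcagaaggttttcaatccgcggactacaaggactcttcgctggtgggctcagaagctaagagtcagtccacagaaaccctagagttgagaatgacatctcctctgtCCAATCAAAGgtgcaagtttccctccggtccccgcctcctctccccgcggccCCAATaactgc
Myom1: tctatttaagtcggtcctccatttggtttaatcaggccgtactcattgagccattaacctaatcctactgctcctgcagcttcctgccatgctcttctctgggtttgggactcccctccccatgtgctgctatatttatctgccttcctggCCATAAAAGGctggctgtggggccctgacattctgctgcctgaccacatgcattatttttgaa

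The CArG box began 226 bases before the Cntn1 start site at 92051165 and 99 bases before the Myom1 start site at 71019557. The TCF/LEF motif of Cntn1 lay 60 bases before the start and is found in 3.21% of windows, and a CCAAT box (CCAAT) is found in 33.8%. Motifs of AP-1 (TGANTCA), CRE (TGACGTCA), the MYC E-box (CACGTG), EGR (GCGTGGGCG) and the GC box (GGGCGG) were searched on both strands too, and none of them occurred in either window. They are found in 6.75%, 1.55%, 6.02%, 0.536% and 32.7% of windows. A TATA box (TATAAA, 12.4% of windows) was searched as well and did not occur in either. Of the other Cntn1 start sites in RefSeq, the one at 92128128 had a TATA match and the one at 92161357 had CCAAT matches. A match is a string of letters and does not show that a factor binds there.

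Before transplantation no difference of the 6 genes between Selp high and Selp low cells passed the test. The groups overlapped for all 6, where 3.08% of all genes did not overlap. In edgeR 0% of all 16878 genes were called, 5.11% had an unadjusted p under 0.05, and DESeq2 called 11 genes. The log2 changes of the 6 genes ran from -0.0004 for Cntn1 to 0.17 for Myom1, with adjusted p from 0.973 to 1. The 95% intervals were narrowest for Sfrp1, from -0.29 to 0.41, and Myom1, from -0.23 to 0.57. For Gipc2 the interval was -0.36 to 0.70 and for Ccbe1 -0.69 to 1.00. The intervals of Cntn1 and Ripk4 were wider than 2-fold in both directions, from -1.08 to 1.08 and from -1.09 to 1.17. All these intervals come from the fit without a replicate block. They therefore include differences between replicate numbers that Selp low and Selp high libraries share.

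After transplantation the remaining 4 genes had no difference between the inputs that passed the test. Ccbe1 was higher in Selp high-derived cells by a fitted log2 change of 2.37 ± 1.04 (SE), from 7 reads against 1, with an edgeR adjusted p of 0.979. Without Selp high-derived replicate 3 this was 1.31, and it was 4.32 when the third Selp low-derived library was left out. Ripk4 differed by -0.06 ± 0.77, Myom1 by -0.41 ± 0.23 and Sfrp1 by 0.22 ± 0.19 (SE), with edgeR adjusted p from 0.979 to 1. Ripk4 had a wide interval, from -1.71 to 1.59, and Sfrp1 a narrow one, from -0.19 to 0.63. Cntn1 was the only one of the 6 whose groups did not overlap, where 10.3% of all genes did not overlap in 1 direction or the other.

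Cntn1 differed between pre-transplant replicate numbers. The cells came from 4 mice and Selp low and Selp high libraries with the same number varied together, but the labels do not say that a number is a mouse, and a shared day of sorting or preparation cannot be told apart from a shared donor. The libraries numbered 2 had a mean of 3.99 CPM of Cntn1, and the other numbers had 9.51 to 12.2, so that the highest was 3.04 times the lowest. A test of differences among the 4 numbers in edgeR, added after the values were seen, gave an adjusted p of 0.0146 for Cntn1, where 10.2% of 15426 genes were called. Ripk4 was highest in the libraries numbered 2, with 41.0 CPM against 22.4 to 29.4, and its adjusted p was 0.104. The other 4 genes had adjusted p from 0.271 to 0.746, and their highest number was 1.14 to 1.54 times the lowest. Without both libraries numbered 2, all 6 genes met the criteria, and the log2 change of Cntn1 was -5.43 and that of Ripk4 -5.12.

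**Figure D4:**
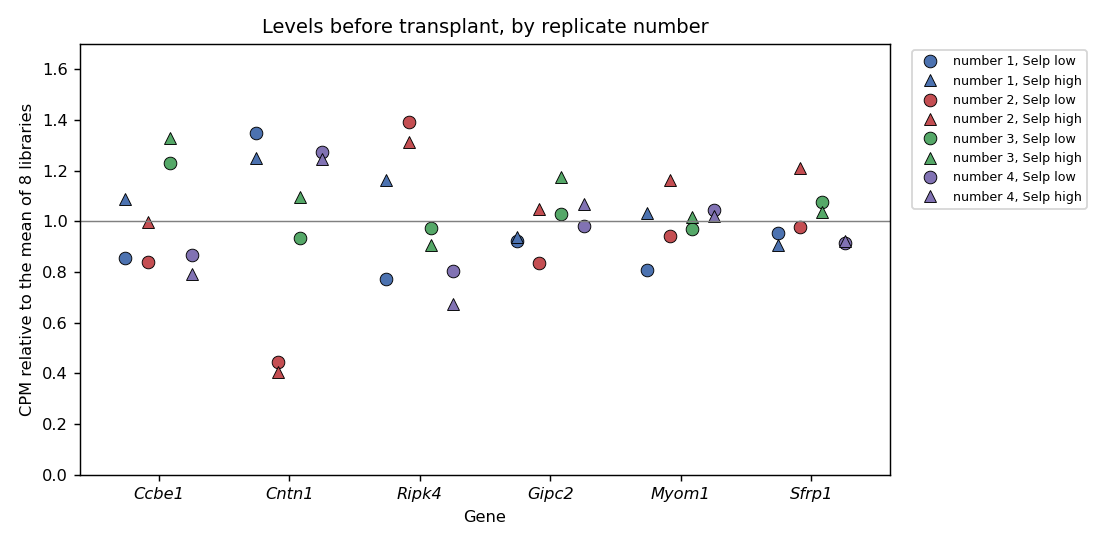
Level of each gene in the 8 pre-transplant libraries relative to the mean of those 8, with circles for Selp low and triangles for Selp high libraries and 1 colour per replicate number. Circle and triangle of number 2 lie together near 0.4 for Cntn1 and near 1.3 to 1.4 for Ripk4, while for Gipc2, Myom1 and Sfrp1 all libraries lie between 0.8 and 1.3.

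Across all 14 libraries the 6 genes followed one another, as their choice ensures. Pearson correlations of log2 CPM between pairs of them ran from 0.809 to 0.985, with a median of 0.923 over 15 pairs, and these points share library, depth and the step between stages. Once the 4 group means were removed, the same 15 correlations ran from -0.553 to 0.473 with a median of 0.0571. Within a group, then, a library high in 1 of these genes was not in general high in the others.

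The genes with the most similar profile over 14 libraries were sought among protein-coding genes whose log2 CPM averaged 1 or more. Gipc2 and Myom1 were each other's nearest (r = 0.985). Next for Gipc2 came Hspb1, a small heat shock protein gene, and Fam169a, and for Myom1 the transcription factor gene Ets1 and Clu, which encodes clusterin. Ccbe1 was nearest to Itgb3, the integrin beta 3 gene, at r = 0.987, then to Ctsb and Arhgef28. Sfrp1 was nearest to Ctsb, the cathepsin B gene, at r = 0.987, then to Muc1 and Clu. Cntn1 was nearest to Prkd1, a protein kinase D gene, at r = 0.967, then to Mt1 and Hoxb9. Ripk4 was nearest to Fam83g at r = 0.979, then to Kcnb2 and Clec1b.

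Most of these likenesses were smaller once group means were removed. Then r for Ccbe1 and Ctsb was 0.0208 and for Gipc2 and Myom1 0.410. Those that stayed highest were Ripk4 with Fam83g at 0.924, from 7.68 CPM of Fam83g before to 1.07 after, and Sfrp1 with Muc1 at 0.896, from 29.9 to 1.78 CPM of Muc1. All are descriptions over 14 libraries, picked as the highest of about 11356 genes compared.

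**Figure D5:**
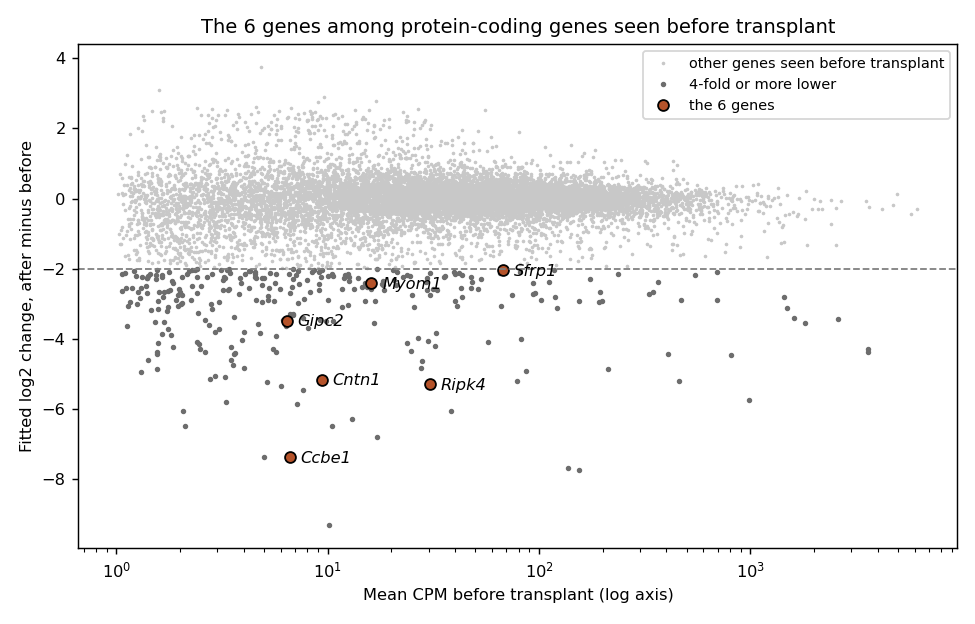
Fitted log2 change after minus before transplantation against the mean CPM before (log axis) for the 12037 protein-coding genes seen before transplantation, with the 291 genes at or below -2 in dark grey and the 6 genes in orange. Sfrp1 lies on the dashed line at 4-fold lower at the right, and Ccbe1, at 6.59 CPM before, lies deepest of the 6 at -7.38.

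Other blood cells could also contribute to sorted libraries. Neutrophil markers were uneven, with a summed level of 280 to 19700 CPM before and 350 to 12200 after, and 0 of 10 were called. For B cell and erythroid markers 0 were called in either direction, and of 10 megakaryocyte and platelet markers 4 were lower and 3 higher. The share of these cells in the levels of the 6 genes was not tested.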

How the data were processed

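Counts of reads per gene for 14 polyA RNA libraries were deposited by the authors as whole numbers. Per the submitters' processing notes the tools were FastQC 0.11.9, Picard 2.23.0 and STAR 2.7.0d, and the build GRCm38. No annotation release is given in the sources used here, but GENCODE M21 held all 55450 identifiers. The count column without strand was used, because sums by strand had a ratio of 0.989 to 0.999. Reads that were unmapped (3.35 to 5.06%), multimapping (9.93 to 13.4%), in no feature (3.37 to 5.13%) or ambiguous (4.20 to 4.79%) stayed out.

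From these counts, edgeR 4.0.16 (R 4.3.3) with TMM factors of 0.963 to 1.042 fitted 4 group means over 14 libraries (10 residual degrees of freedom) and made quasi-likelihood tests, two-sided, with Benjamini-Hochberg adjustment and a threshold of 0.05. Its expression filter with a minimum count of 10 kept 16878 genes. CPM is after TMM scaling, log2 CPM has a prior count of 2, and errors beside CPM are SD over 8 libraries before and 6 after. DESeq2 1.42.0 was an alternative. The others were other size factors, no filter, each library left out, libraries that stood apart left out and the replicate block. The fit was tested on simulated data.

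The 6 genes and the gene lists were chosen with earlier results of these data known. The lists name their 3 most abundant genes per kb, and up to 4 called genes in each direction with at least 1 CPM per kb. Other list genes, and those under that level, were named after their values were seen. Some list genes that are in the counts are not reported here by name. The main fit had no replicate block, and pre-transplant replicate numbers were taken as pairs only in the alternative with the block. Deviations from group means correlated at r of 0.289 to 0.527 for pre-transplant libraries with the same number, while for the others r was -0.401 to 0.0493. Post-transplant numbers (r of -0.0509 to 0.0248) were not regarded as pairs, though a block was run for them too. A chi-square check for a library deposited under 2 names found none among pairs within the same group. Pairs from different groups were not checked.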

Additional observations from a re-analysis of the deposited data

Results flagged for a closer look

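Of 12 sets of 4 pre-transplant libraries, 6 genes in 2 groups, 2 had a library that stood far from the other 3 by Dixon's ratio of its gap to the range above its 95% critical value. About 1 in 20 such sets would do so without any cause. For Ccbe1 in Selp low cells the ratio was 0.933, and the library was number 3, at 8.10 CPM against 5.54 to 5.71. For Myom1 in Selp high cells the ratio was 0.896, and the library was number 2, at 18.7 CPM against 16.4 to 16.6.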

How the results depend on the processing

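None of the 6 genes changed direction after transplantation under any alternative, and Sfrp1 alone left the criteria, as described. The 291 genes that met the criteria became 195 when every pre-transplant library had to reach 1 CPM, 200 when each input had to fall 4-fold, and 270 to 327 when 1 library was left out. Genes called between Selp high and low before transplantation numbered 0, 1 with no filter, 11 in DESeq2, 2 with the replicate block and 0 to 2 with 1 library left out. Between the derived groups they numbered 0, 24 in DESeq2, 2 with the replicate block and 0 with any library left out. For the difference of these differences they numbered 0, 9 in DESeq2 and 0 with any library left out. The block changed no call of the 6 genes, and Cntn1 became called only in DESeq2. With 1 library left out, genes called after against before transplantation ran from 3688 to 5022 (4631 with all), for the Selp low input from 803 to 2723 (1936 with all) and for the Selp high input from 1423 to 2827 (2573 with all). The lowest counts came without Selp low-derived replicate 1 and, for the Selp high input, without Selp high-derived replicate 3. The list counts that follow cover the pathway and family lists and not the cell type markers. List genes called higher ran from 5 to 12 (11 with all), lowest without Selp low-derived replicate 3, and those called lower from 24 to 28 (27 with all). The cause of these shifts was not tested. After transplantation few reads limit Ccbe1, Cntn1 and Ripk4, with at most 5, 34 and 38 reads in a library.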
